A study of Mus musculus with 4 samples.

Results

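Histone mRNAs were measured by single-cell RNA sequencing of bone from Ctrl mice and from mice under hindlimb unloading (HLU), a model of weightlessness in which the hind limbs bear no load. The members were chosen by gene symbol and comprised 73 of the 31053 genes in the count tables, namely 67 genes whose symbols name the histone clusters (Hist1h to Hist4h) and 6 replacement histones, H2afz, H2afx, H2afy, H3f3a, H3f3b and H1f0. All mice were wild-type and, per the study's methods, C57BL/6J. The Ctrl group held 2 libraries and the HLU group held 2 libraries from mice suspended by the tail for 28 days. The sources used here differ on the age of the mice, so no age is given. Tibiae and femurs were flushed to remove marrow and digested to single cells, and 10000 barcodes were deposited for 3 libraries and 10003 for HLU replicate 2. Barcodes with 1000 to 40000 UMIs (unique molecular identifiers, which count captured mRNA molecules) and at most 10% mitochondrial UMIs were kept, which left 32217 barcodes.

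Cells package DNA around a core of histones H2A, H2B, H3 and H4, and linker histone H1 binds the DNA between the cores. Cluster histone genes lie side by side in the genome, are transcribed mainly while DNA is copied, and usually make mRNAs that end in a stem-loop in place of a poly(A) tail. Replacement histones are encoded by single genes outside the clusters, make mRNAs with poly(A) tails, and are put into chromatin throughout the cell cycle and in cells that no longer divide. Neutrophils, the most abundant cells here, stop dividing as they mature from granule-making progenitors. Because the 3′ kit primes on poly(A), a cluster histone mRNA is captured only where it carries a run of adenines, so the levels below are of captured mRNA.

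The 3′ ends set the sequence classes used below. A stem-loop was searched in the annotated transcripts (GENCODE M21 on GRCm38), and a poly(A) signal (AATAAA or ATTAAA) in their last 50 bases. A stem-loop was found in 53 of 21901 protein-coding genes, which is 0.242%. Among the cluster histones, 32 had a stem-loop and no poly(A) signal, 14 had both and 21 had no annotated stem-loop. Some transcript models end at the stop codon, so a missing stem-loop says only that these letters are not in the model. Of the 6 replacement histones, H2afx alone had a stem-loop, together with a poly(A) signal. The most frequent stem-loop was shared by 26 members, and the forms below are shown because they are carried by members with many UMIs or by members whose level differs widely between libraries. They are written 5′ to 3′ with the 6-base complementary arms in capitals and the 4-base loop in lower case.
Hist1h2ap, Hist1h1c, Hist1h1e and 23 others: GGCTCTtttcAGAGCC
Hist1h4d and 6 other H4 genes: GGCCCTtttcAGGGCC
Hist1h3e, Hist1h3c and 4 others: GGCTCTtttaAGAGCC
Hist1h4i and Hist2h4: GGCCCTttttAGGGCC
Hist2h2ac: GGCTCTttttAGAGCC
H2afx: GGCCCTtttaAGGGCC

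Promoters of 3 members are shown because the mRNA of Hist1h1c took another course over the neutrophil stages than those of Hist1h2ap and H2afz. Each runs from 250 bases before the transcription start to 50 bases after it on the gene's own strand (RefSeq, GRCm38.p6), with matches to the CCAAT box, in either direction, and to the GC box GGCGGG, in either direction, in capitals. Hist1h2ap, an H2A gene (chr13:21833426-21833725, minus strand), had 3 CCAAT matches. Hist1h1c, which encodes linker histone H1.2 (chr13:23738557-23738856, plus strand), had 1. H2afz, which encodes the H2A.Z replacement histone (chr3:137864237-137864536, plus strand), had 3 CCAAT matches and 5 matches to the GC box.
Hist1h2ap: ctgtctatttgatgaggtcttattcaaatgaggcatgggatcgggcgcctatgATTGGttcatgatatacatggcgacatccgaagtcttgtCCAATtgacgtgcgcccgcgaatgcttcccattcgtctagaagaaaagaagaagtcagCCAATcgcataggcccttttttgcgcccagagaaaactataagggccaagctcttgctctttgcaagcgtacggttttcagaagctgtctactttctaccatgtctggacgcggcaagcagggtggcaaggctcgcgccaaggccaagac
Hist1h1c: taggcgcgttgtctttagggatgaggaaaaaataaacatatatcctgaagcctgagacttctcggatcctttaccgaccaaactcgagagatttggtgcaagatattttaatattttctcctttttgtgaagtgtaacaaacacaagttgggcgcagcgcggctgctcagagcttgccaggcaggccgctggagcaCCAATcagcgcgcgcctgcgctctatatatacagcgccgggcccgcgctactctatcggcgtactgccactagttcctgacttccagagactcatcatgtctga
H2afz: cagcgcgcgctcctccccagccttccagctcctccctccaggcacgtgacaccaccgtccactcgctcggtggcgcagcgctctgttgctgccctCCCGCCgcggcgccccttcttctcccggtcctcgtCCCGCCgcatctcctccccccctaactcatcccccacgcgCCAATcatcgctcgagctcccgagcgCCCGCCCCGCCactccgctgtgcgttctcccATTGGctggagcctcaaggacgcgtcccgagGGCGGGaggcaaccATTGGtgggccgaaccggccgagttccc

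RefSeq promoters were matched for 67 members, 62 cluster and 5 replacement histones. CCAAT in either direction was in 53 of the 62 cluster promoters (85.5%), in 3 of the 5 replacement promoters and in 41.1% of the promoters of 27025 genes. TATAAA on the gene's strand was in 48.4% of cluster promoters against 9.77% of all promoters, and in 1 of 5 replacement promoters. The GC box in either direction was in 32.3% of cluster promoters, in 5 of 5 replacement promoters and in 37.9% of all promoters. A match describes the sequence and is not a measured binding site.

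On mm10, 54 of the cluster genes lay on chromosome 13 between bases 21715763 and 23934851, 10 lay on chromosome 3 between 96219865 and 96270132, 2 lay on chromosome 11 and 1 lay on chromosome 6. By protein family, 6 cluster genes encode H1, 18 H2A, 18 H2B, 12 H3 and 13 H4. There were 12 pairs of an H2A and an H2B gene that start within 500 bases of each other and run apart, and the genes of a pair could differ widely in captured mRNA. Hist1h2ap and Hist1h2br start 235 bases apart and had 56052 and 2372 UMIs. Hist1h2ac and Hist1h2bc start 250 bases apart, and here the H2B gene led, with 4453 and 44854 UMIs.

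Depth and makeup differed between the libraries. Values of the 4 libraries are given with replicates 1 and 2 of Ctrl before replicates 1 and 2 of HLU. In this order 7340, 7635, 7757 and 9485 barcodes were kept, with medians of 6294.5, 5787, 3799 and 6147 UMIs. Chondrocyte-like cells numbered 1758, 1443, 100 and 87, and mature neutrophil-like cells 1071, 1390, 2345 and 2876, after 431 to 720 barcodes per library called as doublets had been removed. Between 13 and 21 kept barcodes were shared by any pair of libraries. HLU replicate 2 stood apart in that it had 230 barcodes over 40000 UMIs, against 6 to 17 in the others, and 267 under 1000 UMIs, against 2143 to 2585. It also had far more Gm42418, an RNA that overlaps ribosomal RNA sequence, at 28370 CPM (UMIs per 1000000 UMIs of the library or cell type) against 1756 to 4489, a gene chosen after its values were seen. Results that rest on this library are therefore given with and without it.

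The replacement histones made up most of the captured histone mRNA. H3f3a, which encodes histone H3.3 (chr1:180800832-180813943), had 571608 UMIs, 40.6% of the replacement UMIs, and its level was 1455, 1791, 3365 and 2647 CPM in the libraries in the order above. H3f3b, the other H3.3 gene (chr11:116021912-116027962), had 414571 UMIs and 1236, 2066, 1832 and 1604 CPM. H2afz (chr3:137864487-137866922) had 342391 UMIs and 901, 953.5, 1871 and 1722 CPM. For H3f3a and H2afz both HLU libraries lay above both Ctrl libraries, and for H3f3b the groups overlapped. How many of all genes had such an order over all barcodes was not counted. The makeup of the libraries also differed between the groups, so nothing is read from this order. H2afy, which encodes the large variant macroH2A1, H1f0, which encodes the linker histone H1.0 known from cells that have stopped dividing, and H2afx, which encodes H2A.X, the variant phosphorylated at DNA breaks, had 37603, 24574 and 18537 UMIs.

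Of the 67 cluster histones, 64 had at least 1 UMI, 29 had at least 1000, and Hist1h4m, Hist1h2aa and Hist1h2ba had none. Hist1h2ap (chr13:21833026-21833507) led with 56052 UMIs, 16.5% of the cluster UMIs, at 90.6, 184, 362 and 271 CPM. Hist1h1c (chr13:23738808-23740367) followed with 51329 UMIs at 229.7, 294, 175 and 151 CPM, and Hist1h2bc, an H2B gene (chr13:23684199-23692908), had 44854 UMIs at 274, 313, 102 and 73.7 CPM. For Hist1h1c and Hist1h2bc both HLU libraries lay below both Ctrl libraries, an order from which nothing is read for the same reasons.

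Linker histone genes took 4 of the 12 leading places. Hist1h1e, which encodes H1.4 (chr13:23620629-23622558), had 45346 UMIs at 31.5, 54.4, 49.6 and 435 CPM, and Hist1h1b, which encodes H1.5 (chr13:21779883-21780625), had 32764 UMIs at 16.5, 28.0, 33.7 and 327 CPM. In both, HLU replicate 2 lay far above the other 3 libraries. Hist1h1d, which encodes H1.3, had 6879 UMIs. The remaining leaders were the H4 genes Hist1h4d, Hist1h4i and Hist1h4h with 12635, 11967 and 5943 UMIs, the H2A genes Hist1h2ae and Hist3h2a with 11918 and 4484, and the H3 gene Hist1h3e with 4583. The other cluster histones with any UMI had from 5 UMIs (Hist1h2bq) to 4453 (Hist1h2ac). Reads that match several near-identical copies are dropped by the counting, so the share of one copy among its likes, such as Hist2h2aa1 and Hist2h2aa2, is uncertain.

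**Figure D1:**
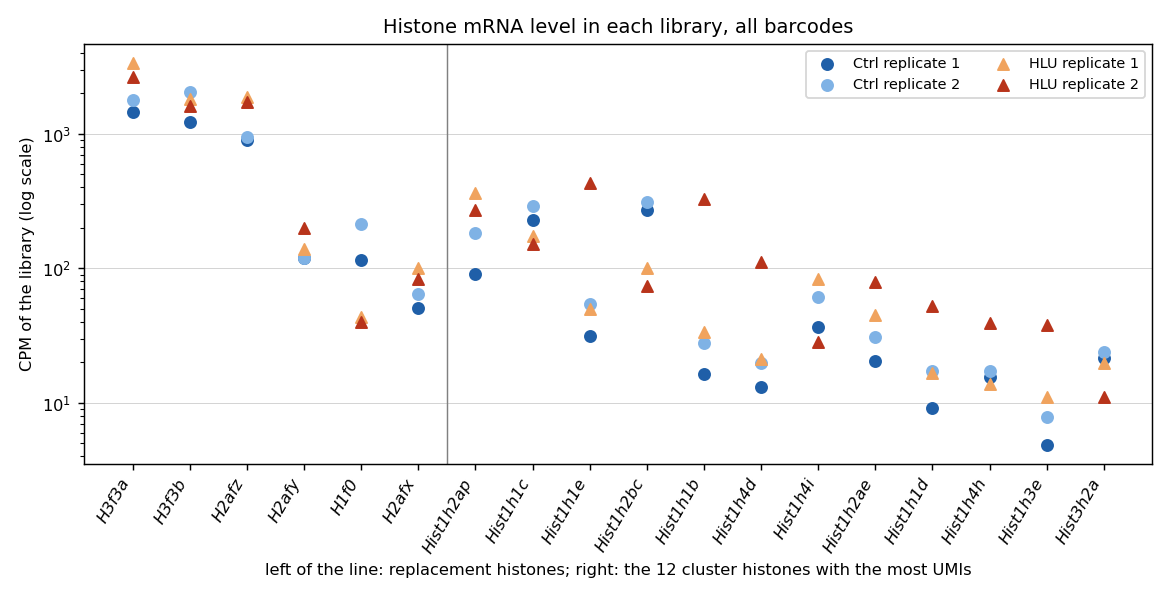
Level of the 6 replacement histones and of the 12 cluster histones with the most UMIs in each library, in CPM over all kept barcodes, on a log axis, with circles for Ctrl and triangles for HLU libraries. HLU replicate 2 stands above the other libraries for Hist1h1e, Hist1h1b and Hist1h4d, while H3f3a lies between 1455 and 3365 CPM and H1f0 between 39.9 and 214 CPM.

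The excess in HLU replicate 2 was spread unevenly over the cluster histones. Over all barcodes, 9 of the 48 cluster histones with at least 300 UMIs were more than 5 times higher in HLU replicate 2 than in HLU replicate 1, a limit chosen after the values were seen, beside 173 of 12091 genes (1.43%). Hist1h3c, an H3 gene, was the most extreme at 0.87, 1.28, 1.59 and 32.8 CPM, a ratio of 20.6. Hist2h2ac, an H2A gene, had 1.03, 2.25, 2.29 and 33.7 CPM, a ratio of 14.7. Those 2 genes were barely captured in the other 3 libraries. The ratio was 9.72 for Hist1h1b, 8.78 for Hist1h1e and 5.30 for Hist1h4d.

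The annotated end of the transcript went with the ratio. None of the 11 cluster histones with a stem-loop and a poly(A) signal passed 5-fold, and their median ratio was 0.847 with a highest value of 2.85. The 26 with a stem-loop only had a median of 1.93, and 6 of them passed. This class lacks the signal in its last 50 bases, but its models need not end at the stem-loop. Of the 6 that passed, Hist1h1e and Hist1h4d run on for 1153 and 770 bases. Hist2h2ac, Hist1h2bm, Hist1h3c and Hist1h2ab run on for 57, 46, 74 and 11 bases. Among the 11 without an annotated stem-loop the median was 2.59 and 3 passed. The 6 replacement histones ranged from 0.787 to 1.45. The class did not fix the ratio of a gene, since Hist1h2ap had 0.749 and Hist2h3c2 had 0.293 with no poly(A) signal.

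Within cell types the excess was not of 1 size. In immature neutrophil-like cells 15 of 34 cluster histones passed 5-fold, beside 41 of 7018 genes (0.584%), led by Hist2h2bb at 33.1 and Hist1h3c at 31.4. There 10 of 19 genes with a stem-loop only passed, and 2 of 6 with a stem-loop and a poly(A) signal, whose median was 2.32. Replacement histones had ratios of 0.883 to 1.34. In neutrophil progenitor-like cells 6 of 18 cluster histones passed, beside 2.11% of 6439 genes, with a median ratio of 2.76. In monocyte-like cells 1 of 15 passed, beside 0.976% of 7277 genes. Their median was 0.601, so most cluster histones were lower in HLU replicate 2 there, among them Hist1h2ap at 0.322. Other transcripts, chosen after their values were seen, moved with this library. In immature neutrophil-like cells the ratio was 39.2 for Gm42418, 46.9 for AY036118 and 16.3 for Lars2. In monocyte-like cells it was 12.5, 15.8 and 8.52. The part of these transcripts in the histone values was not tested.

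**Figure D2:**
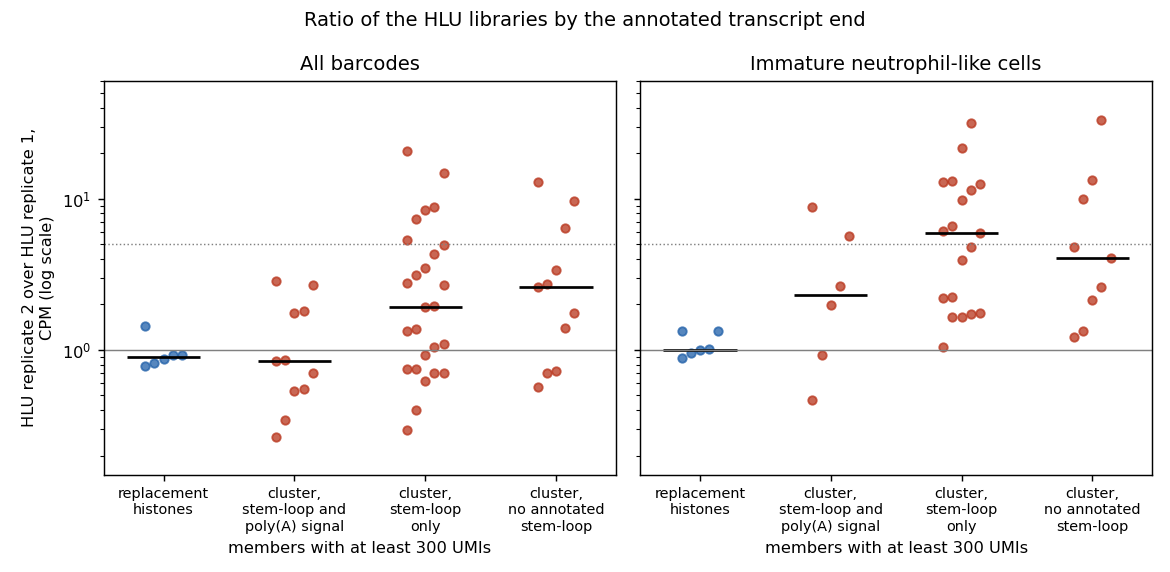
Ratio of the level in HLU replicate 2 to that in HLU replicate 1 on a log axis, 1 point per member with at least 300 UMIs, by the annotated end of its transcript, over all barcodes (left) and in immature neutrophil-like cells (right), with the median as a bar, equality as a solid line and 5-fold as a dotted line. Replacement histones sit near equality, and cluster histones without a poly(A) signal reach 20.6 on the left and 33.1 on the right.

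Cell types were named from marker genes after clustering without histone and cell cycle genes, and levels between them are a description without a test. The HLU cells of the mesenchymal stromal-like type mostly lacked the markers of that name, and those markers are given with the comparison of HLU and Ctrl. The mean share of UMIs from cluster histones was 0.356% ± 0.0794 (SD, n = 3 libraries with at least 20 cells) in basophil- and mast cell-like cells, 0.311% ± 0.0211 (n = 2) without HLU replicate 2. In B cell precursor-like cells, of which HLU replicate 2 had none, it was 0.294% ± 0.103 (n = 3). In Ctrl replicate 2 the precursors were higher (0.406% against 0.326%) and in HLU replicate 1 lower (0.205% against 0.296%), so these types have no fixed order. Megakaryocyte-like cells had 0.224% ± 0.0358 (n = 4), and 0.211% without HLU replicate 2. Among named types with n = 4 the lowest shares were 0.0782% ± 0.0213 in mesenchymal stromal-like cells, 0.0815% ± 0.0271 in mature neutrophil-like cells and 0.0820% ± 0.0164 in chondrocyte-like cells. T cell-like, dendritic and B cell-like cells lay between, at 0.104%, 0.136% and 0.149%. Dendritic cell-like and B cell-like cells differed by less than the spread between their libraries.

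Erythroid-like cells had 0.152% in HLU replicate 1 and 0.504% in HLU replicate 2, the 2 libraries with at least 20 such cells. Replacement histones followed another order. Their share was 1.22% ± 0.135 in B cell precursor-like cells, 0.864% ± 0.0915 in immature neutrophil-like, 0.857% ± 0.0681 in megakaryocyte-like and 0.852% ± 0.0447 in dendritic cell-like cells, and lowest at 0.281% ± 0.0516 in chondrocyte-like cells. The replacement share exceeded the cluster share by 7.86 ± 1.78 times in mature neutrophil-like cells and by 2.19 ± 0.530 times in basophil- and mast cell-like cells.

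Single replacement histones peaked in different types, of the 12 with at least 20 cells in 3 or more libraries. H3f3a was highest in B cell precursor-like cells at 6160 ± 844 CPM (SD, n = 3) and next in mature neutrophil-like cells at 4110 ± 135 (n = 4), and lowest in chondrocyte-like cells at 775 ± 314. H2afx and H2afy were also highest in B cell precursor-like cells, at 452 ± 159.9 and 543 ± 76.7 CPM, and lowest in mature neutrophil-like cells at 13.02 ± 3.93 and 37.1 ± 15.95. H1f0 had its highest means in chondrocyte-like cells at 214 ± 184 and in basophil- and mast cell-like cells at 199.6 ± 86.7. These means differed by less than the spread between libraries, so these types have no fixed order. The chondrocyte markers were also lower in the HLU chondrocyte-like cells, as given with the comparison of HLU and Ctrl. The lowest level of H1f0 was 10.2 ± 9.84 in mature neutrophil-like cells. Thus H1f0, H2afx and H2afy had their minimum in the cell type with the second highest level of H3f3a.

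Cluster histones also had individual patterns. Hist1h2bc was highest in chondrocyte-like and mesenchymal stromal-like cells, at 326 ± 112 and 265 ± 132 CPM (377 and 381 in the Ctrl libraries of the stromal-like cells), types in which Hist1h2ap was at its lowest level or close to it (30.7 ± 16.2 CPM in mesenchymal stromal-like cells). Hist1h2ap was highest in B cell precursor-like cells at 813 ± 538 CPM. Hist1h1c was highest in basophil- and mast cell-like cells at 672 ± 303, and Hist3h2a in B cell precursor-like and dendritic cell-like cells at 126 ± 36.0 and 113 ± 44.7.

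Along the neutrophil line the members fell into distinct courses from progenitor-like to immature (stage I) and mature (stage II) neutrophil-like cells. H2afz had 2599.7, 2313, 2796 and 2831 CPM in progenitor-like cells, 2857, 2577, 2753 and 2760.4 in immature cells, and 604, 500.4, 606 and 351 in mature cells. H2afx had 89.6, 98.4, 94.4 and 91.6, then 159.9, 176, 166 and 168, then 12.7, 17.4, 14.0 and 7.93 CPM. For both genes every library was lowest in the mature cells, and the stages did not overlap between immature and mature cells.

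H3f3a went the other way, with 2457, 2556, 2791 and 2065 CPM in progenitor-like, 3169.8, 3176, 3355 and 2963 in immature and 4090.2, 3943, 4270.3 and 4134 in mature cells. Its share of UMIs was higher at each later stage in all 4 libraries. Depth fell along the stages, with a median of 15590 UMIs per barcode in the progenitor-like cluster and 2390 to 3969 in the mature clusters. Amounts per cell were not compared. H3f3b was lowest in mature cells, at 1298, 1873, 1111 and 1170 CPM against 2625, 3701, 1737 and 1657 in immature cells. H2afy was lower at each later stage in every library, from 204, 301, 208 and 402 to 84.1, 71.7, 89.1 and 119 and then to 25.1, 28.7, 34.3 and 60.3 CPM. The 2 genes for the same H3.3 protein therefore differed in their course.

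Among cluster histones, Hist1h2ap had 263, 526, 442 and 293 CPM in progenitor-like, 397, 513, 601 and 627 in immature and 37.4, 93.5, 66.0 and 45.7 in mature cells. Hist1h1c and Hist1h2bc had another course. Hist1h1c had 93.8, 76.3, 95.7 and 122 CPM, then 134, 166, 114 and 226, then 218, 364, 209.9 and 117. It was highest in mature cells in 3 libraries and in HLU replicate 2 it was highest in immature cells. Hist1h2bc had 77.8, 54.9, 57.9 and 40.7 CPM in progenitor-like and 59.8, 98.6, 51.3 and 68.9 in immature cells. Its 229, 426, 195 and 134 CPM in mature cells were above both earlier stages in every library.

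As a sum, cluster histones were 0.0946%, 0.145%, 0.113% and 0.168% of UMIs in progenitor-like cells, 0.120%, 0.155%, 0.128% and 0.409% in immature and 0.0716%, 0.122%, 0.0711% and 0.0617% in mature cells. The mean of the immature cells was 0.203% ± 0.138 with all 4 libraries and 0.134% ± 0.0184 without HLU replicate 2. Hist1h1b shows how far 1 library reached: its level in immature cells was 74.6, 89.6, 61.6 and 824 CPM, and in mature cells 0.398, 4.10, 1.10 and 3.61 CPM. Barcodes under 1000 UMIs, which were left out of all types, had cluster shares of 0.101%, 0.113%, 0.0892% and 0.465%, so the excess of this library was also present in them.

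**Figure D3:**
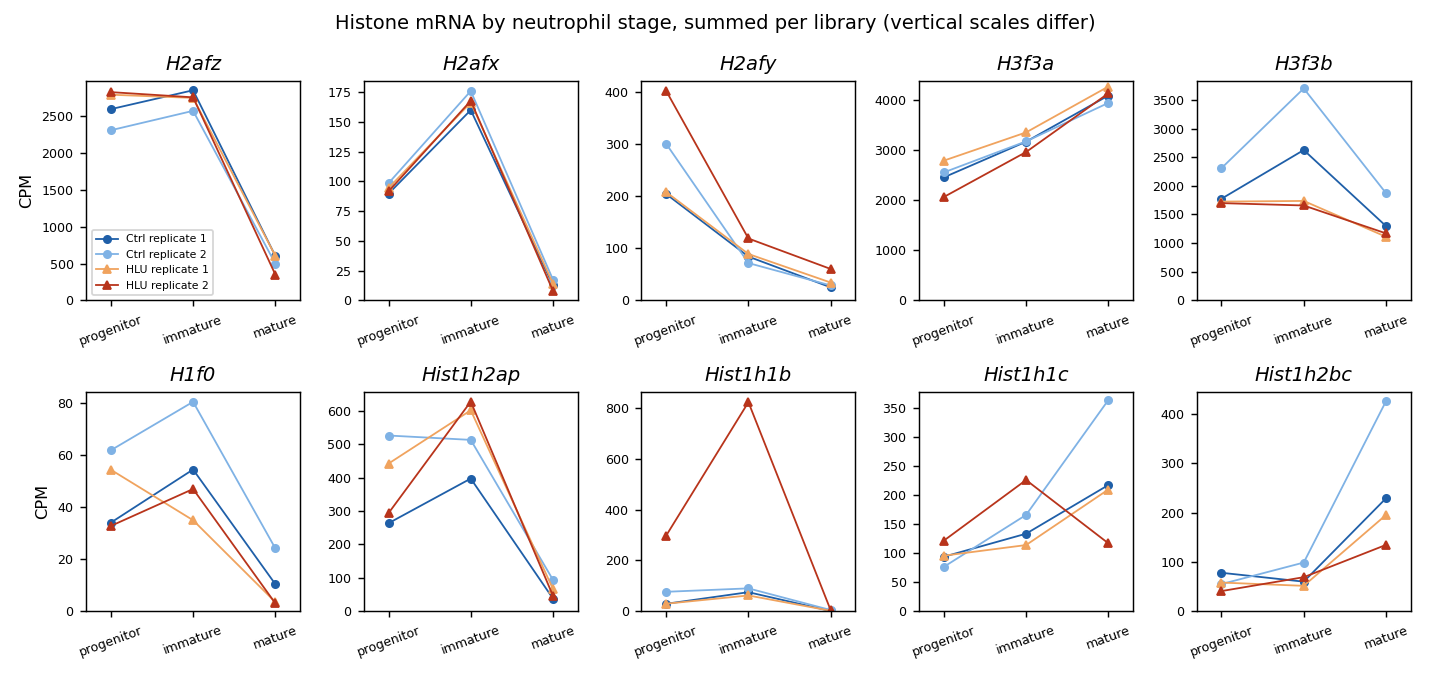
Levels of the 6 replacement histones and of 4 cluster histones in CPM, summed per library over progenitor-like, immature and mature neutrophil-like cells, 1 line per library, each panel on its own linear scale from 0. H2afz, H2afx and Hist1h2ap are lowest in mature cells, H3f3a is highest there in all 4 libraries, and Hist1h1b is high in HLU replicate 2 alone.

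Within immature neutrophil-like cells, histone mRNA was compared between cells that carried S phase mRNAs, cells that carried G2/M mRNAs and cells with neither. Each cell was thinned to 1000 UMIs, S and G2/M cells had at least 3 UMIs of lists of 40 and 45 genes without histones, and cells with neither had 0 of both. There were 141 S cells, 1632 G2/M cells and 2338 with neither, while 1986 cells had 1 or 2 UMIs or fell between and were left out. Cells of the classes differed in depth, with medians per library of 10208 to 15742 UMIs in S, 11325 to 14663 in G2/M and 5120 to 7338.5 in neither cells, and in cluster, since 84.99% of G2/M cells came from 1 cluster that held 0.171% of the neither cells. Such classes are ranges of mRNA content, and from them alone no cycling is read.

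The cluster histone share was 0.0622% ± 0.0195 in neither cells, 0.384% ± 0.193 in S cells and 0.360% ± 0.230 in G2/M cells (SD, n = 4). Without HLU replicate 2 the means were 0.0534%, 0.297% and 0.245%. Replacement histones were 0.712% ± 0.0960, 1.21% ± 0.198 and 1.03% ± 0.108. Both sets were lowest in neither cells.

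Of the 67 cluster histones, 23 could be tested in S against neither cells with edgeR, the library as a block. To leave out genes that passed the filter only through the S cells, members are counted where every library had at least 10 UMIs in neither cells, which 13 cluster histones and all 6 replacement histones did. Among these 13, 9 were higher in S cells beside 15.6% of 6152 genes, and 1 was lower beside 22.1%. Without HLU replicate 2 these were 7 and 0. The share of all genes without that library is not given, so no excess is read from these counts. Hist1h2ap had 66.9, 109, 101 and 76.5 CPM in neither and 900.2, 1470.1, 1999.6 and 1196 CPM in S cells, a log2 difference of 3.69 (SE 0.185, edgeR adjusted p = 9.2e-10). Hist1h1e had 46.1, 59.2, 34.8 and 360.1 CPM against 161, 187, 132 and 1013, a log2 difference of 1.44 (SE 0.189, edgeR adjusted p = 2.5e-05). Both were higher in S cells in 4 of 4 libraries.

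Not all leading cluster histones took part. Hist1h1c had 127, 186, 106 and 161 CPM in neither and 136, 101, 115 and 300 in S cells, a log2 difference of -0.14 (SE 0.242, edgeR adjusted p = 0.682), and its direction varied among the libraries. Hist1h2bc was lower in S cells, at 79.7, 103, 54.8 and 81.7 CPM against 20.1, 107, 17.1 and 42.9, a log2 difference of -1.09 (SE 0.288, edgeR adjusted p = 0.00696). It rested on 4, 31, 4 and 48 UMIs in S cells, and without HLU replicate 2 the adjusted p was 0.0553. Hist1h2br and Hist3h2a did not pass.

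Of the replacement histones, H2afx, H2afz, H2afy and H3f3b were higher in S cells. H2afx had 15.4, 16.8, 15.6 and 6.04 CPM in neither and 251, 281, 247 and 123 in S cells, a log2 difference of 3.84 (SE 0.1997, edgeR adjusted p = 1.3e-09). H2afz had 1839, 1896, 1937 and 1405 CPM in neither and 6085, 4459, 4852 and 4452 in S cells, a log2 difference of 1.23 (SE 0.169, edgeR adjusted p = 3.6e-05). H2afx, the replacement member with a stem-loop, thus had a difference close to that of Hist1h2ap. H3f3a was the 1 replacement histone called lower, by a log2 difference of -0.48 (SE 0.162, edgeR adjusted p = 0.0273), a call that was lost when any library was left out. H1f0 had a log2 difference of 0.33 (SE 0.307, edgeR adjusted p = 0.420).

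G2/M cells gave much the same picture with more cells. Of 44 cluster histones tested, 13 met the same minimum in neither cells, of which 8 were higher beside 22.2% of 6431 genes and 1, Hist1h2bc, was lower beside 35.1%. Hist1h2ap had 854, 1041, 1399 and 1113 CPM, a log2 difference of 3.41 from neither cells (SE 0.111, edgeR adjusted p = 2.7e-09). H2afx had 397, 415, 432 and 334 CPM, a log2 difference of 4.73 (SE 0.166, edgeR adjusted p = 4.5e-09). All libraries were higher in G2/M than in S cells for H2afx, a comparison that was not tested. H2afz, H2afy, H3f3b and H1f0 were also higher and H3f3a was lower, so 5 of the 6 replacement histones rose. H1f0 had 21.3, 55.8, 17.5 and 28.8 CPM in neither and 102, 118, 63.4 and 63.4 CPM in G2/M cells, a log2 difference of 1.26 (SE 0.182, edgeR adjusted p = 0.00018). Without HLU replicate 2 the counts were 8 and 2 for cluster and 5 and 1 for replacement histones. No share of all genes stands beside the counts without that library, so no excess is read from them.

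**Figure D4:**
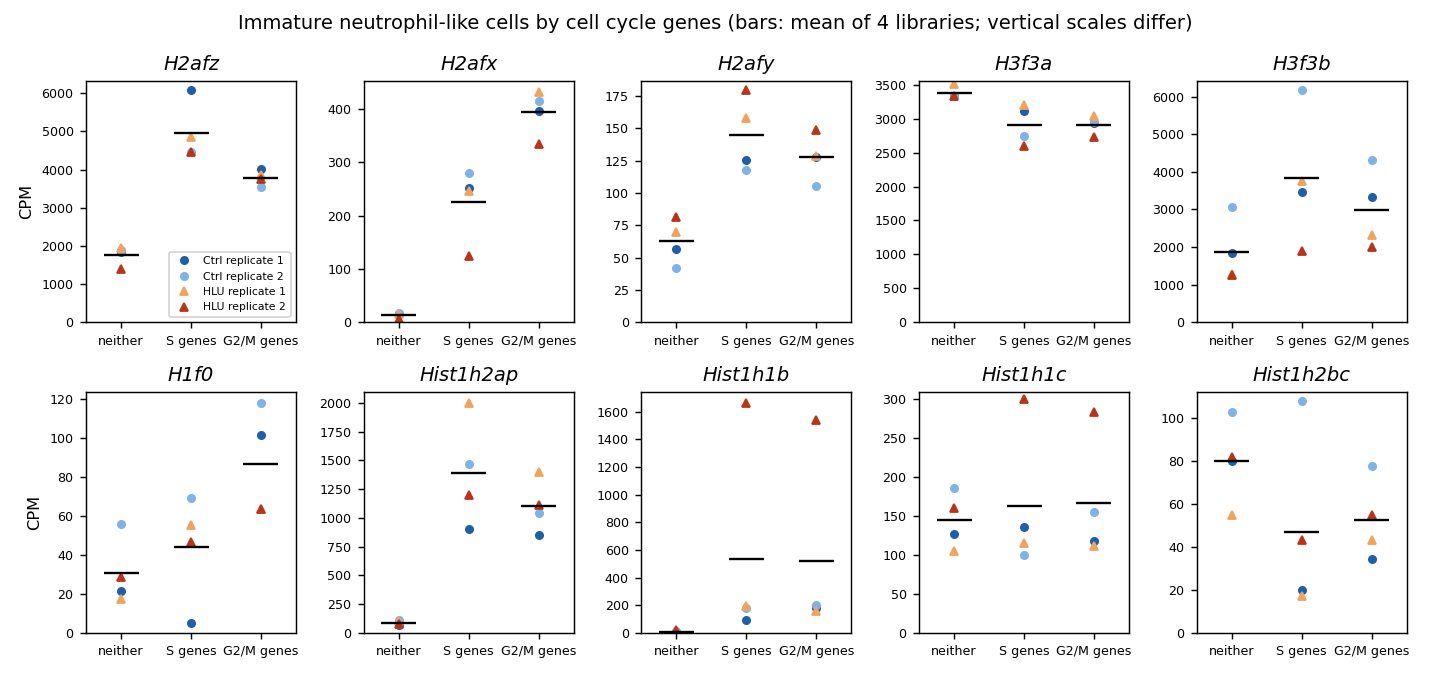
Levels in immature neutrophil-like cells with neither list, with S phase mRNAs and with G2/M mRNAs, in CPM, 1 point per library and the mean of 4 libraries as a bar, each panel on its own linear scale from 0. H2afx and Hist1h2ap are low in neither cells in all libraries, H3f3a differs little, and Hist1h1c and Hist1h2bc do not rise with them.

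In progenitor-like cells the same contrast was smaller. Cluster histones were 0.0666% ± 0.00891 of UMIs in 187 neither cells, 0.165% ± 0.0515 in 310 S cells and 0.1995% ± 0.0415 in 492 G2/M cells. The S cells numbered 10, 17, 12 and 271 in the libraries, too few in all but HLU replicate 2 for a test. HLU replicate 2 had 38.3% of its progenitor-like cells in the S class against 2.56% to 7.20% in the other libraries. Of 14 cluster histones tested in G2/M against neither cells, 5 met the minimum, with 3 higher beside 3.14% of 2545 genes and 1 lower beside 5.3%. Of the replacement histones 5 met it, and 1 of these, H2afz, was higher (log2 difference 0.58, SE 0.131, edgeR adjusted p = 0.0138). Without HLU replicate 2 the replacement count was 3, a count without a share of all genes beside it from which nothing is read.

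In mature neutrophil-like cells with G2/M mRNAs (323 cells) no such step was seen. They numbered 69, 83, 146 and 25 in the libraries, with 92, 305, 301 and 43 cluster histone UMIs. These sums are small, so a step of limited size could be missed. Their cluster histone share was 0.0863% ± 0.0409, against 0.0770% ± 0.0230 in 4351 neither cells. It was above that of neither cells in Ctrl replicate 2 and HLU replicate 1, and below it in Ctrl replicate 1 and HLU replicate 2. None of the 8 cluster and 4 replacement histones tested was called, beside 0.81% of genes higher and 0.972% lower. At an unadjusted p under 0.05, edgeR had 1 member in each set and DESeq2 none, with no share of all genes beside these counts.

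Genes that make or carry histones were described from lists. Of 15 genes of histone mRNA synthesis and processing, 11 met the minimum in immature cells, and 5 were higher in S cells with none lower. All counts on these lists stand beside the same shares of all genes as above, 15.6% higher and 22.1% lower in S cells and 22.2% and 35.1% in G2/M cells. Of 23 genes for chaperones and deposition 17 met it, and 9 were higher with none lower. Of 5 histone variants outside the rule 3 met it and 2 were higher. In G2/M cells the counts were 6 higher and 2 lower for the first list and 9 higher and 1 lower for the chaperones. Slbp, whose protein binds the histone stem-loop, had 57.9, 53.9, 66.3 and 29.4 CPM in neither and 463, 368, 341 and 218 in S cells, a log2 difference of 2.49 (SE 0.194, edgeR adjusted p = 9.3e-08), and 1.13 (SE 0.107) in G2/M cells. Nasp, a chaperone of H3 and H4, had log2 differences of 3.63 (SE 0.218) in S and 2.35 (SE 0.123) in G2/M cells. Asf1b, a chaperone of H3 and H4 in dividing cells, and Npat, an activator of cluster histone transcription, were below the minimum and entered only through the cells in which they were high, so their levels are a description. Asf1b had 0.991, 1.87, 1.25 and 0.453 CPM in neither and 119, 97.6, 88.3 and 68.6 CPM in G2/M cells. Npat had 2.48, 2.62, 2.501 and 1.66 against 9.81, 7.95, 6.08 and 10.4 CPM.

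Unloading was addressed by comparing the HLU with the Ctrl libraries. Over all kept barcodes, cluster histones were 0.0854% and 0.120% of UMIs in Ctrl and 0.111% and 0.195% in HLU libraries, a difference of 0.0501 percentage points (exact permutation test, two-sided, p = 0.667), which was 0.00791 without HLU replicate 2. Replacement histones were 0.388% and 0.521% in Ctrl and 0.735% and 0.630% in HLU libraries, a difference of 0.228 points (exact p = 0.333). With 2 libraries against 2, 0.333 is the smallest p possible. The groups did not overlap for the replacement histones, but the makeup of the libraries moved with them, and in such sums fewer cells of a type and less RNA per cell cannot be told apart.

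Within cell types, UMIs were summed per library and tested with edgeR in the 10 types with at least 20 cells in every library. In 9 of them edgeR called no member. Of all genes it called 0.971% in B cell-like, 0.301% in T cell-like, 0.0% in chondrocyte-like, 0.171% in dendritic cell-like, 1.38% in immature and 2.14% in mature neutrophil-like, 0.225% in megakaryocyte-like, 0.125% in monocyte-like and 0.153% in neutrophil progenitor-like cells. At an unadjusted p under 0.05 it had 0 to 7 cluster and 0 or 1 replacement histones per type. DESeq2 called 3 members in these types, 2 in chondrocyte-like and 1 in mature neutrophil-like cells. The edgeR calls of members, summed over these types, changed when either HLU library was left out. The count of 0 therefore depends on which libraries enter. No share of all genes stands beside the counts at an unadjusted p, the DESeq2 calls or those with a library left out. No excess of histones is therefore read from them.

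The mesenchymal stromal-like cells were not the same cells in both groups. They numbered 1114, 865, 117 and 114, and their 6 stromal markers (Pdgfra, Lepr, Cxcl12, Dcn, Lum and Pdgfrb) summed to 30077 and 27164 CPM in Ctrl but 1131 and 4484 CPM in HLU libraries. The B cell markers Cd79a, Ms4a1, Ighd, Fcer2a and Cd79b, all detected in every library, summed to 3.14 and 11.6 CPM in Ctrl and 612 and 87.6 CPM in HLU libraries. The gap was widest in 1 of their 3 clusters, with 406, 321, 76 and 50 cells, where stromal markers summed to 23961, 22706, 3.47 and 894 CPM and these B cell markers to 5.74, 29.2, 1135.5 and 368 CPM. Here the HLU cells went against the name of the cluster. At a finer clustering its cells were split between clusters named as chondrocytes, with 247, 157, 0 and 4 of them, and as B cells, with 147, 157, 76 and 46. In the cluster with 224, 214, 39 and 34 cells the stromal markers were also lower in HLU libraries, at 2156 and 1349.7 CPM against 14975 and 12387. The neutrophil mRNAs S100a8 and S100a9 took 0.116% and 0.263% of all UMIs of the type in Ctrl and 0.926% and 1.35% in HLU libraries.

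Of 28 members tested in this mixed type 3 were called, all lower in HLU, beside 8.44% of 11710 genes called, 4.71% lower and 3.72% higher. Hist1h1c had 346 and 398 CPM in Ctrl and 104 and 115 in HLU libraries, a log2 difference of -2.06 (SE 0.237, edgeR adjusted p = 0.0300). Hist1h2bc had 377 and 381 against 152 and 149 CPM, a log2 difference of -1.63 (SE 0.210, edgeR adjusted p = 0.0319). H1f0 had 117 and 127 against 39.7 and 55.6 CPM, a log2 difference of -1.65 (SE 0.264, edgeR adjusted p = 0.0390). Both HLU libraries lay below both Ctrl libraries for each, and the other 5 replacement histones had log2 differences from 0.25 (H2afz) to 0.61 (H3f3a) and none was called.

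These calls compare unlike cells, and without the cluster that carries B cell markers none of 26 members was called. Hist1h1c, Hist1h2bc and H1f0 then had log2 differences of -1.75, -1.05 and -1.15 (edgeR adjusted p = 0.0668, 0.132 and 0.0944), and 5 members had an unadjusted p under 0.05. In the cluster with B cell markers alone they were -2.80, -3.39 and -3.12 (edgeR adjusted p = 0.00330, 0.00330 and 0.0207). In the cluster of 224, 214, 39 and 34 cells they were -0.89, -0.57 and -0.07 and none was called. Leaving out either Ctrl library ended all 3 calls. Without HLU replicate 2 the log2 differences of the 3 genes were -2.24, -1.73 and -2.03. The number of members called changed with the library left out. No share of all genes stands beside it or beside the count at an unadjusted p. No member was called at resolution 2 or without integration of the libraries.

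Of 22 chaperones tested in the same cells, 2 were called, beside 8.44% of 11710 genes called and 3.72% called higher. No excess of chaperones is read from this count, since the cells compared are unlike. The 2 genes were Ssrp1 and Supt16, which encode the subunits of FACT, both higher in HLU. Ssrp1 had 63.0 and 61.4 CPM in Ctrl and 149 and 149.9 in HLU libraries (log2 difference 0.96, SE 0.186, edgeR adjusted p = 0.0476). Supt16 had 51.9 and 45.7 against 124 and 151 CPM (log2 difference 1.19, SE 0.224, edgeR adjusted p = 0.0454). Neither was called without the cluster that carries B cell markers (adjusted p = 0.306 and 0.198). None of 14 genes of histone mRNA synthesis and none of 5 variants outside the rule was called.

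Across the types H1f0 had both HLU libraries below both Ctrl libraries in 7 of 10, one of them the mixed stromal type. It was the 1 of 54 members with at least 300 UMIs to do so (1.85%), beside 386 of 12091 genes (3.19%), so this order was not more frequent among the members than among all genes. H1f0 had 42.6 and 39.0 against 17.8 and 13.4 CPM in B cell-like cells (log2 difference -1.56, SE 0.369, edgeR adjusted p = 0.158), and 196 and 477 against 60.5 and 122 in chondrocyte-like cells (-2.21, SE 0.578, edgeR adjusted p = 0.146). The 7 chondrocyte markers summed to 22116 and 24638 CPM in the Ctrl but 11822 and 11882 CPM in the HLU chondrocyte-like cells. The second of these comparisons is therefore not of like cells either. In mature neutrophil-like cells H1f0 had 10.3 and 24.1 against 3.46 and 2.96 CPM (-2.24, SE 0.519, edgeR adjusted p = 0.140). None of these 3 passed the threshold. The stromal marker Dcn also differed in blood cell types. It had 783 and 757 CPM in Ctrl and 3.44 and 4.72 CPM in HLU libraries in B cell-like cells. In T cell-like cells it had 686 and 774 against 2.46 and 7.25 CPM. The part of such mRNA from other cells in the H1f0 values was not tested. In dendritic cell-like cells H1f0 had 65.6 and 90.5 against 89.7 and 149 CPM, and in megakaryocyte-like cells, 1 of the 7 types, it lay between 102 and 111 CPM in all libraries. H2afz and H2afy had both HLU libraries above both Ctrl libraries in 6 types each and below them in 0. For H3f3b they were above in 2 types and below in 4. The share of all genes with such an order was not counted, so nothing is read from these counts.

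**Figure D5:**
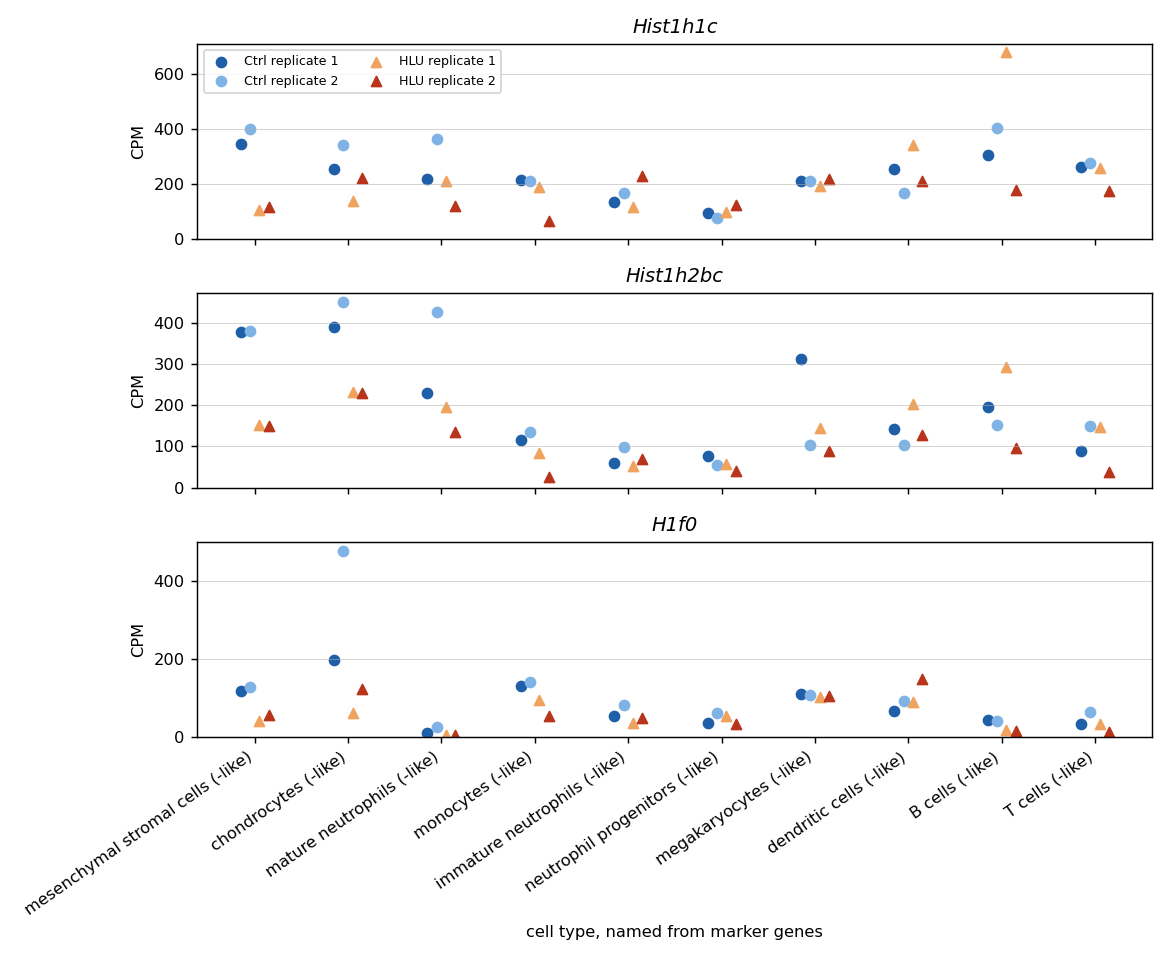
Levels of Hist1h1c, Hist1h2bc and H1f0 in CPM per library in the 10 tested cell types, with circles for Ctrl and triangles for HLU libraries, on linear axes from 0. The groups are apart for all 3 genes in mesenchymal stromal-like cells, where stromal markers are far lower in the HLU libraries (1131 and 4484 against 30077 and 27164 CPM), and H1f0 is lower in both HLU libraries in chondrocyte-like, monocyte-like and B cell-like cells as well.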

How the data were processed

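Bone cells of 2 Ctrl and 2 HLU libraries were measured with the 10x Genomics 3′ kit. The authors made the UMI counts with Cell Ranger 6.0.0 on mm10 and deposited raw counts per gene and barcode (the study's notes also name Seurat 4.1.0). The members, gene lists and marker lists were chosen with earlier results of these data known. Barcodes outside 1000 to 40000 UMIs or over 10% mitochondrial UMIs were left out. Kept barcodes held 56279602 and 58763775 UMIs in the Ctrl and 45347595 and 87604282 in the HLU libraries, and values of small sums are limited by counting error. Doublets were called with Scrublet in scanpy 1.11.5 and removed for cell types. Libraries were integrated and clustered with Seurat 5.3.0 without histone and cell cycle genes (resolution 1), and clusters were named from markers or left unnamed (1 marker is not reported here). Each library's UMIs were added up within a cell type or class, and the sums were tested with edgeR 4.0.16 (quasi-likelihood, TMM, filterByExpr, Benjamini-Hochberg over all genes tested, threshold 0.05) in R 4.3.3. Classes within a cell type had the library as a block. The SE given with an edgeR log2 difference was derived as its absolute value divided by the square root of the F statistic. Library shares were compared by exact permutation tests (scipy 1.17.1). Nothing in the labels says whether more than 1 mouse went into a library, so p-values measure the spread between these libraries. Named genes are the 6 replacement histones, the 12 cluster histones with the most UMIs, every member called in HLU against Ctrl, and of the companion lists those called or else Slbp, Npat, Nasp and Asf1b. Others named were chosen after their values were seen. Alternatives were DESeq2 1.42.0, RLE factors, no filter, a replicate block, each library left out, other clusterings, doublets kept, a haemoglobin limit of 0.2%, class limits of 2 and 5 UMIs, a denominator without the 50 leading genes, and, added after seeing the data, a crossed replicate block, single stromal clusters and the stromal-like cells without 1 cluster. Tests were checked on simulated counts. Python 3.11.15, numpy 2.4.6, pandas 2.3.3 and matplotlib 3.10.9 were used.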

Additional observations from a re-analysis of the deposited data

Results flagged for a closer look

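Hist1h1c was flagged for its direction in 2 cell types. In neutrophil progenitor-like cells it had 93.84 and 76.35 CPM in Ctrl and 95.65 and 121.6 in HLU libraries, a mean difference of 23.5 CPM. HLU replicate 1 lay close to Ctrl replicate 1, and the highest value was that of HLU replicate 2, the library that stands apart. In mesenchymal stromal-like cells both HLU libraries lay below both Ctrl libraries, and the difference between the types was not tested. The stromal-like HLU cells had few stromal markers and carried B cell markers, so the stromal values compare unlike cells. Barcodes under 1000 UMIs, which the comparisons do not use, held cluster histones at 0.465% of UMIs in HLU replicate 2, above 0.101% and 0.113% in the Ctrl libraries. In the same barcodes replacement histones took 0.737% of UMIs in HLU replicate 1, above 0.471% and 0.546% in the Ctrl libraries, while HLU replicate 2 had 0.474%.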

How the results depend on the processing

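Of 644 values recomputed under alternatives, 529 were labelled as kept, 59 kept direction but lost their call, 2 gained one, 47 moved further and 7 changed sign. For the differences in library shares, kept meant the same direction alone. Stage shares were kept if they moved by less than the replicate spread, and counts of calls if they were equal or within a fixed fold. Single genes were kept with the same direction and side of the threshold, or with the same direction where no adjusted p was had. Each group has 2 libraries, several types have few cells, and 1 HLU library stands apart, which limits every comparison of HLU with Ctrl. The members called in mesenchymal stromal-like cells (3) were 0 at resolution 2, 0 without integration, 0 in the cluster of 224, 214, 39 and 34 cells, 0 without the cluster whose HLU cells carry B cell markers, and 0 to 12 with a library left out. At resolution 0.5 no cluster was named as mesenchymal stromal cells, so no value was had. Member calls summed over the other 9 types (0) were 34 without a filter, 3 with DESeq2, 3 at resolution 0.5, 3 at resolution 2, 1 without integration and 0 to 124 with a library left out. The high ends came without HLU replicate 1, where HLU replicate 2 stood alone for its group and was assumed to vary like the Ctrl libraries. No share of all genes stands beside the counts of member calls under the alternatives in this section, so no excess of histones is read from them. Without HLU replicate 2 the calls in the 9 types were 15.

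The deviations of libraries with the same replicate number correlated by -0.126 to 0.179 over 10 types. With 2 pairs, and with HLU replicate 2 standing apart, this cannot decide whether the replicate numbers pair the libraries. With the replicate block 2 members were called in mesenchymal stromal-like cells and 1 in the other types. With the crossed pairing, added after seeing the data, these were 1 and 2.

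With a denominator without the 50 leading genes, cluster shares were 0.195%, 0.402% and 0.136% in progenitor-like, immature and mature neutrophil-like cells and replacement shares 1.11%, 1.65% and 1.03%. In progenitor-like cells they were 0.176% and 0.785% at resolution 2, and 0.183% and 0.826% without integration. Without the library block, 5 cluster histones were higher in S and 5 in G2/M cells of the immature type with 3 replacement histones, and in progenitor-like cells 1 and 0. The replacement count there was 3 without a filter, 2 with the limit of 5 UMIs and 0 to 3 with a library left out. With a library left out, cluster histones higher in immature cells were 7 to 10 in S and 8 to 11 in G2/M, lower 0 to 1 and 1 to 2, and replacement histones lower in S cells were 0. Those in progenitor-like cells were 2 to 4 higher and 0 to 1 lower. The shares differed between HLU and Ctrl by 0.00791 to 0.0924 points (cluster) and 0.161 to 0.295 (replacement). Log2 differences changed sign for Hist1h1c in S (0.021 at a limit of 2 UMIs, -0.47 to 0.12 with a library left out) and G2/M cells (-0.27 to 0.0024 with a library left out). They also changed for Hist3h2a in S (-0.14 without a filter, -0.38 to 0.52 with a library left out) and G2/M cells (-0.17 to 0.078 with a library left out). The cause of these shifts was not tested.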
